A study of Mus musculus with 4 samples.

Results

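The gamma-chain cytokine pathway of double-positive (DP) thymocytes was examined through 10 genes, chosen by their symbols. They encode receptor chains (Il7r, Il2ra, Il2rb, Il2rg, Il4ra and Il21r), receptor-associated kinases (Jak1 and Jak3) and transcription factors (Stat5a and Stat5b). All 10 symbols were found among the 35976 in the count files, and all 10 were among the 20389 genes that passed the filter on low counts. The libraries were bulk RNA-seq of sorted mouse thymocytes positive for CD24, CD4 and CD8a and negative for TCRb, cells that display both coreceptors before a T cell receptor appears at the surface. Knockout (KO) libraries came from mice of genotype Cxxc1 F/F :Lck-cre and control libraries from mice of genotype Cxxc1 +/+ :Lck-cre, with 2 libraries per genotype. Both genotypes therefore carried the Lck-cre transgene, whose Lck promoter drives Cre in T-lineage cells. The labels give no age, sex or strain, and do not state whether each library was made from a different animal, so p-values here rest on the differences among these samples, possibly technical ones. Cxxc1 encodes a CpG-binding subunit of the SETD1 histone H3 lysine 4 methyltransferase complexes.

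Receptors of this family pair the common gamma chain (Il2rg) with further chains that set which cytokine is bound. JAK3 associates with the gamma chain and JAK1 with its signalling partner (such as the Il7r, Il4ra, Il21r or Il2rb product), while the Il2ra product raises affinity without binding a kinase, and the activated kinases phosphorylate STAT5, which enters the nucleus and induces survival and growth genes. In the thymus, interleukin-7 sustains double-negative (DN) thymocytes, Il7r is shut off at the DP stage and returns after positive selection, and Il2ra (CD25) marks a DN stage.

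Libraries held 36243182 and 33544428 counts in KO 1 and KO 2, and 12150508 and 34820446 counts in control 1 and control 2. A floor of 3 counts corresponded to 0.0843 to 0.252 CPM (read counts scaled to a common effective library size), and such floors cover counting error only. Cxxc1 itself had 35.7 and 39.4 CPM in KO 1 and KO 2, and 111 and 53.5 CPM in control 1 and control 2. Both KO libraries lay below both controls, with a log2 fold change of -1.12 ± 0.34 (SE) that did not pass the threshold by edgeR's quasi-likelihood test (adjusted p = 0.199) and passed it by DESeq2 (adjusted p = 0.0337). The labels do not say which exons are deleted, so counts over the whole gene are a partial check of the genotype.

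The receptor genes did not move as a block. Il7r and Il2ra rose in KO DP thymocytes, while 8 members did not pass the test, among them the shared chain Il2rg and both STAT5 genes. Calls required an adjusted p below 0.05 over all tested genes, which 0.451% of them reached (0.27% higher and 0.181% lower). Of the 10 members, 2 were called higher and 0 lower. An unadjusted p below 0.05 was reached by 6 members, against 13.9% of all tested genes. DESeq2 called 5 members, 3 higher and 2 lower, against 4.64% of all tested genes. The KO and control libraries did not overlap for 6 members, 3 higher (Il7r, Il2ra and Jak3) and 3 lower (Il4ra, Il21r and Stat5b), where 46.8% of all tested genes did not overlap. The median log2 fold change of the 10 members was -0.19, and that of all tested genes was -0.04. The members were chosen with earlier results of these data known, so these comparisons with all tested genes are not independent support. The absence of a call for 8 members does not show that they were unaltered.

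**Figure D1:**
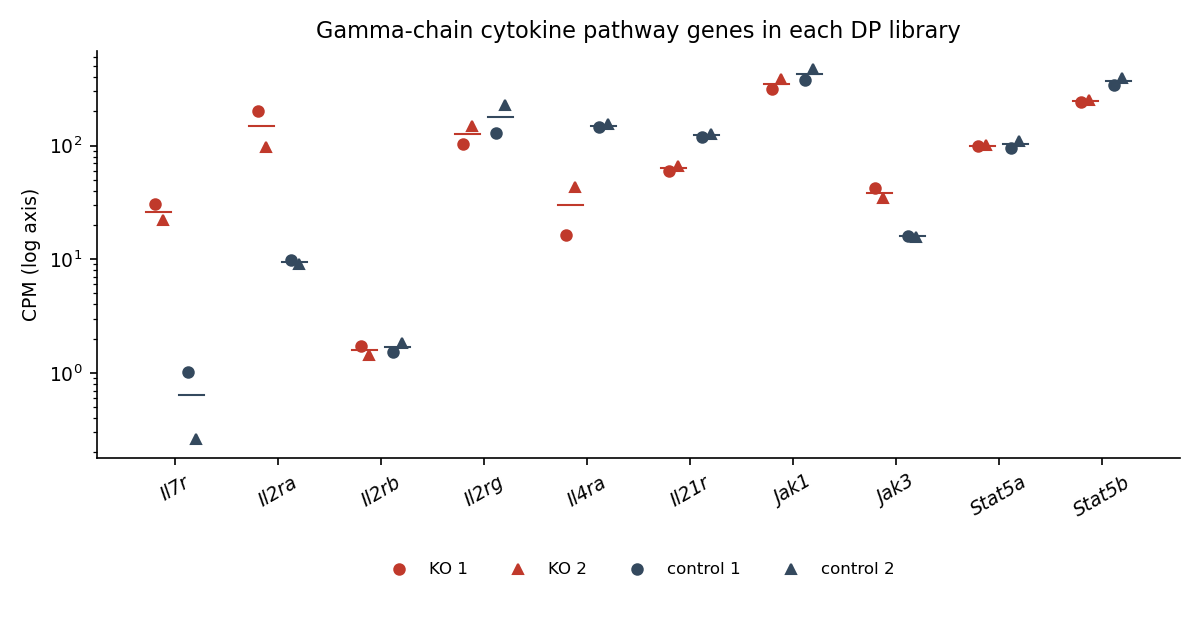
CPM of the 10 genes in each library on a log axis, KO in red to the left of control in dark blue. Circles are replicate 1, triangles replicate 2 and short lines the means of the 2 libraries. The genotypes are farthest apart for Il7r and Il2ra, and the control libraries differ from each other most for Il7r, at 1.01 and 0.260 CPM.

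Il7r encodes the interleukin-7 receptor alpha chain and lies at chr15:9506159-9529941 on GRCm38. It had 30.6 and 21.9 CPM in KO 1 and KO 2, and 1.01 and 0.260 CPM in control 1 and control 2. The control values rested on 12 and 9 reads, against 1066 and 781 reads in the KO libraries, and the genotypes did not overlap. The fitted rise was 47.8-fold, with a 95% interval of 17.2-fold to 132.8-fold (edgeR quasi-likelihood test, adjusted p = 0.0152). Its call ended without KO replicate 1, where the log2 fold change was 5.29 (adjusted p = 0.0858). The size rested on the few control reads, with a log2 fold change of 6.64 without control replicate 1 and 4.70 without control replicate 2, against 5.58 in all 4 libraries.

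Il2ra encodes the interleukin-2 receptor alpha chain and lies at chr2:11642792-11693194. It had 201 and 97.0 CPM in KO 1 and KO 2, and 9.84 and 9.03 CPM in control 1 and control 2. The controls were nearly equal, whereas the KO libraries differed from each other by more than the whole control level. The fitted rise was 15.8-fold, with a 95% interval of 8.80-fold to 28.4-fold (edgeR quasi-likelihood test, adjusted p = 0.00616). Il2ra was called under each of the 12 alternative settings, with adjusted p-values up to 0.0131.

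The promoters of both genes that rose held few CpG, the dinucleotide that CXXC1 recognises when unmethylated. They are shown beside that of Il4ra, the member with the lowest log2 fold change. Each window runs 5′ to 3′ on the gene's strand from 250 bases before to 50 bases after a RefSeq start on GRCm38.p6, with each CG in capitals. The windows are chr15:9529827-9530126 on the minus strand, chr2:11642542-11642841 on the plus strand and chr7:125552021-125552320 on the plus strand.
Il7r: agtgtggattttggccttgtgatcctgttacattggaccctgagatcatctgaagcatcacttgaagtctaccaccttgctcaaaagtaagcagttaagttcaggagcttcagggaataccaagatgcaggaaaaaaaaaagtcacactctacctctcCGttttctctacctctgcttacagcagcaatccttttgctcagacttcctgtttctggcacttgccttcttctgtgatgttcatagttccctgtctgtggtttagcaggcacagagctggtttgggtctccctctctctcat
Il2ra: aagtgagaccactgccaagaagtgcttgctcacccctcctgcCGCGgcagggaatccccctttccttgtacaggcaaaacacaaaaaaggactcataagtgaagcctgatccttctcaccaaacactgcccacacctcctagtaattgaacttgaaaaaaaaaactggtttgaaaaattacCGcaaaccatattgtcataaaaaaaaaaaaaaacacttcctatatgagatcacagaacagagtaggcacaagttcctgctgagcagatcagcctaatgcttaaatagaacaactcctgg
Il4ra: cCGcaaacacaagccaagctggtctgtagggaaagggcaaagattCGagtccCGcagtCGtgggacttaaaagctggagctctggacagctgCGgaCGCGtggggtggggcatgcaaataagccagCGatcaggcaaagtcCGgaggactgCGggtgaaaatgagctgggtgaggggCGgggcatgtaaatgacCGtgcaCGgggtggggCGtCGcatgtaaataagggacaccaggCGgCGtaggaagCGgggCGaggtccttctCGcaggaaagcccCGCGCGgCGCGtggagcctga
The Il7r window held 1 CG, the Il2ra window 3 and the Il4ra window 25, where the median of 32851 such windows was 7. Fewer CG than in the Il7r window were present in 5.43% of all windows, fewer than in the Il2ra window in 23.3% and fewer than in the Il4ra window in 81.6%. RefSeq windows were matched for 9 members (not Il2rb). The other receptor genes had 3 CG (Il2rg) and 7 CG (Il21r), Jak3 had 9 and Jak1 had 29. Il2rg, which was not called, thus had as many as Il2ra, and a relation of CG number to the change in KO was not tested. Stat5a and Stat5b each had a CG-poor window (5 and 7) and a CG-rich one (27 and 50). The letters TTCNNNGAA, the core of a STAT5 site and the same on both strands, occurred in 8.30% of all windows and among the members' windows in that of Il7r, 142 bases before the start. The letters TGGGAA, the core of a site for the Notch effector RBPJ, were searched on both strands and occurred in 25.6% of all windows, and among the members' windows in that of Il2rg. The search for these letters is a description of the windows and not of binding.

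**Figure D2:**
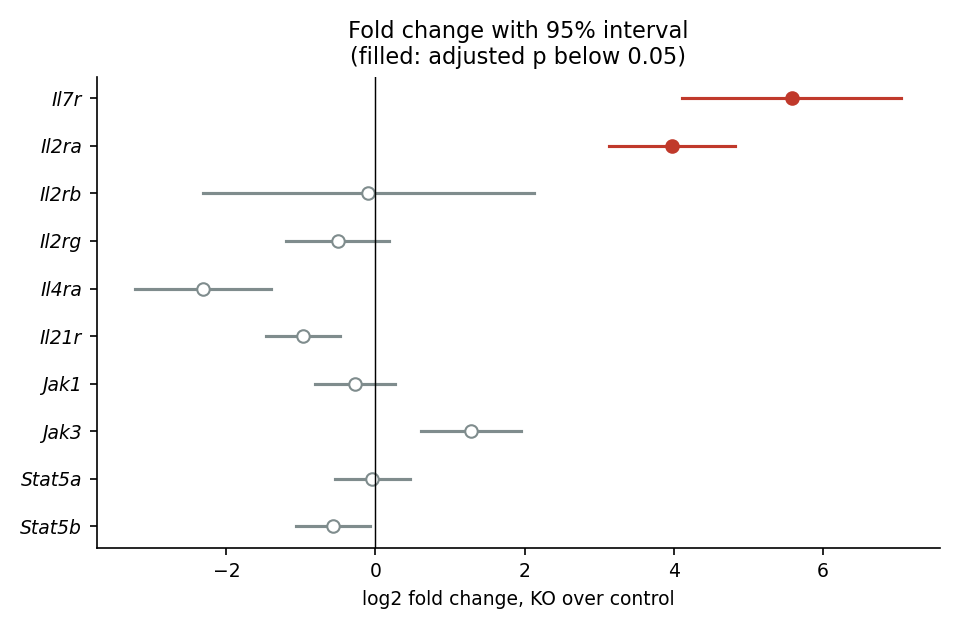
Log2 fold change of each gene, KO over control, with its 95% interval from edgeR's quasi-likelihood fit of 2 KO and 2 control libraries. Filled red symbols mark Il7r (5.58) and Il2ra (3.98), the members with an adjusted p below 0.05, and the intervals of Il4ra, Il21r, Jak3 and Stat5b also lie to one side of 0 without an adjusted p below 0.05.

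Il4ra encodes the interleukin-4 receptor alpha chain, also part of the interleukin-13 receptor, and lies at chr7:125552271-125579474. It had 16.5 and 43.5 CPM in KO 1 and KO 2, and 145 and 153 CPM in control 1 and control 2. Both KO libraries lay far below the controls, but they also differed from each other. The log2 fold change was -2.31 ± 0.41 (SE), and it just missed the threshold (edgeR quasi-likelihood test, adjusted p = 0.0521). It was below 0 under all 12 alternative settings and passed the threshold under 8 of them, with adjusted p-values from 4.26e-23 to 0.107.

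Il21r encodes the interleukin-21 receptor and is the next protein-coding gene to Il4ra, at chr7:125603252-125634397, 23778 bases away. It had 60.3 and 65.5 CPM in KO 1 and KO 2, and 119 and 127 CPM in control 1 and control 2. The libraries of each genotype were close and the genotypes did not overlap. The log2 fold change was -0.97 ± 0.22 (SE), with an adjusted p of 0.107 by edgeR's quasi-likelihood test and 0.00593 by DESeq2.

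The shared chain gene Il2rg (chrX:101264385-101268255) had 103 and 147 CPM in KO 1 and KO 2, and 129 and 226 CPM in control 1 and control 2. The genotypes overlapped, and the spread between the controls exceeded the difference between the genotype means. Its log2 fold change was -0.51, with a 95% interval of -1.20 to 0.18. Il2rb (chr15:78479256-78511621), the beta chain shared by the interleukin-2 and interleukin-15 receptors, was barely expressed. It had 1.72 and 1.43 CPM in KO 1 and KO 2, and 1.51 and 1.85 CPM in control 1 and control 2, from 18 to 64 reads. The genotypes overlapped, and the interval of the log2 fold change, -2.31 to 2.12, leaves changes of several-fold in both directions within it.

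Levels can be compared between genes once divided by exon length. In CPM per kilobase of exon, Il2rg averaged 74.9 in KO and 106 in control DP thymocytes, the first of the 10 members in both genotypes, and its range overlapped that of Jak1, the second. In KO libraries the order then ran Stat5b (44.5), Il2ra (28.6), Stat5a (25.2), Il21r (24.7), Jak3 (8.63), Il7r (7.42), Il4ra (5.71) and Il2rb (0.368). Among these, Il2ra, Stat5a and Il21r could not be ordered beyond the spread between libraries, nor could Jak3, Il7r and Il4ra. In control libraries the order ran Stat5b (66.2), Il21r (48.5), Il4ra (28.4), Stat5a (25.9), Jak3 (3.55), Il2ra (1.81), Il2rb (0.392) and Il7r (0.179). There only Il4ra and Stat5a overlapped among these neighbours.

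The 5 receptor chains other than Il2rg (Il7r, Il2ra, Il2rb, Il4ra and Il21r) summed to 74.4 and 59.2 CPM per kilobase in KO 1 and KO 2, and 76.9 and 81.5 in control 1 and control 2. The makeup of that sum differed more than its size. Il7r and Il2ra made up 63.4% and 41.9% of it in KO 1 and KO 2, against 2.82% and 2.22% in control 1 and control 2. Il4ra and Il21r made up 36.1% and 57.5% in KO 1 and KO 2, against 96.7% and 97.3% in control 1 and control 2. Relative to Il2rg, Il2ra was at 0.625 and 0.211 of its level per kilobase in KO 1 and KO 2, and at 0.0244 and 0.0128 in control 1 and control 2. With 2 libraries per genotype an exact two-sided permutation test of such a ratio cannot go below p = 0.333, which was the value for the ratio of Il2ra to Il2rg.

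**Figure D3:**
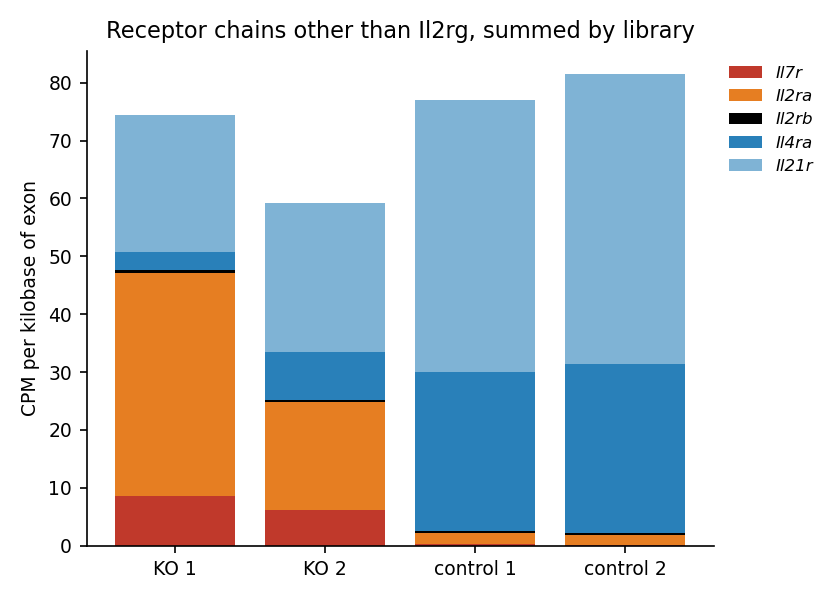
Stacked levels of the 5 receptor chains other than Il2rg in each library, in CPM per kilobase of exon. Red and orange (Il7r and Il2ra) fill 63.4% and 41.9% of the KO bars, and blue shades (Il4ra and Il21r) fill 96.7% and 97.3% of the control bars.

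Of the kinases, Jak3 (chr8:71676383-71690577) had 42.7 and 34.4 CPM in KO 1 and KO 2, and 15.9 and 15.8 CPM in control 1 and control 2. The controls were almost equal and both KO libraries lay above them. The log2 fold change was 1.28 ± 0.30 (SE), with an adjusted p of 0.109 by edgeR's quasi-likelihood test and 0.0126 by DESeq2. Jak1 (chr4:101151974-101265282) had 314 and 383 CPM in KO 1 and KO 2, and 375 and 469 CPM in control 1 and control 2. These ranges overlapped, and the interval of the Jak1 log2 fold change ran from -0.81 to 0.26. The ratio of Jak3 to Jak1, per kilobase, was 0.150 and 0.0986 in KO 1 and KO 2, and 0.0466 and 0.0371 in control 1 and control 2.

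The STAT5 genes lie side by side on chromosome 11, Stat5b at chr11:100780731-100859004 and Stat5a at chr11:100859351-100885169, and encode closely related proteins. Stat5a had 98.8 and 101.2 CPM in KO 1 and KO 2, and 94.8 and 111 CPM in control 1 and control 2, with overlapping genotypes. Its log2 fold change was -0.04 with a 95% interval of -0.54 to 0.46. Stat5b had 240.0 and 253 CPM in KO 1 and KO 2, and 340.2 and 393 CPM in control 1 and control 2. The genotypes of Stat5b did not overlap, but its log2 fold change of -0.57 ± 0.22 (SE) did not pass the threshold (edgeR quasi-likelihood test, adjusted p = 0.296). The ratio of Stat5a to Stat5b, per kilobase, was 0.575 and 0.559 in KO 1 and KO 2, and 0.389 and 0.393 in control 1 and control 2 (exact two-sided permutation test, p = 0.333, the smallest that 2 against 2 libraries allow). How reads matching both genes were treated is unknown from the labels, which leaves the split between them uncertain.

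KO 1 lay farther from the controls than KO 2 for each of the 6 members whose genotypes did not overlap. The same order held for 58.1% of the 9548 tested genes whose genotypes did not overlap. Il2ra was 201 CPM in KO 1 against 97.0 CPM in KO 2, and Il4ra was 16.5 CPM in KO 1 against 43.5 CPM in KO 2.

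Genes next to the members were read in the same fit. Il7r is flanked by Capsl, 40120 bases away, with 3.33 and 6.21 CPM in KO 1 and KO 2, and 0.0841 and 0 CPM in control 1 and control 2. On its other side is Spef2, 48252 bases away, with 24.0 and 17.0 CPM in KO 1 and KO 2, and 4.88 and 1.82 CPM in control 1 and control 2. Neither neighbour was called by edgeR's quasi-likelihood test (adjusted p = 0.073 for Capsl and 0.0808 for Spef2). DESeq2 called both higher (adjusted p = 0.000301 for Capsl and 0.000345 for Spef2). Both were higher in both KO libraries, and the control values of Capsl rested on 1 and 0 reads. Il2ra is followed, 11978 bases on, by Il15ra, the interleukin-15 receptor alpha chain gene described below, and its other neighbour Rbm17 overlapped between genotypes. Beyond Il21r lies Gtf3c1, which also overlapped between genotypes. Next to Il2rg lie Gm614, 393 bases away, and on the other side Med12, 5836 bases away. Both overlapped between genotypes, and Med12 had a log2 fold change of 0.01 ± 0.22 (SE). The span of Il2ra overlaps the noncoding gene Gm39760 and that of Jak1 overlaps Raver2. Gm39760 had 5.11 and 2.08 CPM in KO 1 and KO 2, and 0.673 and 0 CPM in control 1 and control 2. Its adjusted p was 0.358 by edgeR's quasi-likelihood test and 0.146 by DESeq2. Raver2 had 8.84 and 10.9 CPM in KO 1 and KO 2, and 22.3 and 38.1 CPM in control 1 and control 2. The span of Jak3 overlaps Insl3, with 47 reads in KO 1 and 0 in KO 2 and both controls. The labels name no strand setting for the counts, and reads from overlapping exons of these pairs could not be told apart.

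The genes whose pattern over the 4 libraries was most like that of Il2ra were Unc93b1, Pgpep1l and Plac8. Likeness was the root-mean-square distance of log2 CPM after centring each gene, which was 0.262, 0.354 and 0.379 for these among 8943 candidates of at least 10 CPM in the higher genotype. For Il7r they were Pgpep1l, Mpzl2 and Rab44, at distances of 0.695, 0.821 and 0.821. Mpzl2, which encodes a homophilic adhesion protein, had 40.7 and 12.7 CPM in KO 1 and KO 2, and 2.44 and 0.692 CPM in control 1 and control 2. Over 4 libraries such distances mostly follow the difference between genotypes.

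The other receptor genes of the family were 4 in number, of which 3 were tested, with 0 called by edgeR, 1 called by DESeq2 and 2 with unadjusted p below 0.05. Il9r, the interleukin-9 receptor gene, had 37.0 and 25.2 CPM in KO 1 and KO 2, and 8.41 and 5.63 CPM in control 1 and control 2 (log2 fold change 2.16 ± 0.39 (SE), edgeR quasi-likelihood test, adjusted p = 0.0568). Il15ra had 13.5 and 9.30 CPM in KO 1 and KO 2, and 4.29 and 4.04 CPM in control 1 and control 2 (adjusted p = 0.222). Crlf2, a subunit of the receptor for thymic stromal lymphopoietin, overlapped between genotypes (log2 fold change -0.08 ± 0.64 (SE)). The list median was 1.45, against -0.04 for all tested genes. For this list and those below, the shares of all tested genes were 0.451% called by edgeR and 4.64% called by DESeq2. An unadjusted p below 0.05 was reached by 13.9% of them.

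Ligand genes had at most 2.02 CPM in any library. Of 8, 3 were tested (Il4, Il13 and Tslp), with 0 called by edgeR or DESeq2 and 0 at an unadjusted p below 0.05. Their highest values were 0.225 CPM in KO and 1.07 CPM in control libraries for Il4, 0.590 and 2.02 CPM for Il13, and 0.787 and 0.923 CPM for Tslp. Among those not tested, Il7 had 0 reads in both KO libraries, and 0 and 41 reads in control 1 and control 2, and Il2 had 0 reads in all 4 libraries, both named after their values were seen.

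Other JAK and STAT genes were tested for all 7 listed, with 0 called by edgeR or DESeq2 and 0 at an unadjusted p below 0.05, and their median log2 fold change was 0.11. Jak2, a kinase of many other cytokine receptors, had 143.5 and 158.5 CPM in KO 1 and KO 2, and 158.6 and 181.5 CPM in control 1 and control 2. Stat3, the gene next to Stat5a and a main STAT downstream of the interleukin-21 receptor, had a log2 fold change of 0.44 ± 0.25 (SE), and Stat2 had -0.32 ± 0.24.

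Of 14 inhibitor genes, 0 were called by edgeR, 3 had an unadjusted p below 0.05 and 3 were called by DESeq2, 1 higher and 2 lower, with a list median of -0.15. Socs1, a feedback inhibitor of JAK kinases, had 34.0 and 40.0 CPM in KO 1 and KO 2, and 63.6 and 86.9 CPM in control 1 and control 2 (edgeR quasi-likelihood test, adjusted p = 0.14). Socs3, named after its values were seen, stood on the other side, with 47.4 and 29.8 CPM in KO 1 and KO 2, and 19.9 and 13.0 CPM in control 1 and control 2 (adjusted p = 0.188). Dusp6, a phosphatase of ERK kinases, had 0.258 and 1.04 CPM in KO 1 and KO 2, and 7.23 and 13.0 CPM in control 1 and control 2 (adjusted p = 0.0769). The ubiquitin ligase gene Cbl and the phosphatase gene Ptpn6, first in the list by mean CPM, had log2 fold changes of -0.48 ± 0.23 and -0.16 ± 0.22 (SE).

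Of 18 genes known to respond to STAT5 or interleukin-7, 17 were tested, with 1 higher (Myc), 0 lower and 16 not called, and 7 had an unadjusted p below 0.05, 2 higher and 5 lower. DESeq2 called 2 of them higher (Myc and Ccnd2) and 3 lower (Ccnd3, Bcl2l1 and Bcl6), with Ccnd2 and Bcl6 named after their values were seen. The list median was -0.35. The list was not split into genes that rise and genes that fall in response, so its median has no single direction of response. Myc, a growth-promoting transcription factor gene, had 201 and 109 CPM in KO 1 and KO 2, and 21.9 and 13.0 CPM in control 1 and control 2 (log2 fold change 3.16 ± 0.38 (SE), edgeR quasi-likelihood test, adjusted p = 0.0156), and its call also ended without KO replicate 1, where no gene of the list was called. The cyclin gene Ccnd3 had 224 and 237 CPM in KO 1 and KO 2, and 710.3 and 513 CPM in control 1 and control 2 (adjusted p = 0.052). The survival gene Bcl2l1 had 107 and 138 CPM in KO 1 and KO 2, and 297 and 316 CPM in control 1 and control 2 (adjusted p = 0.0533). Cish, a direct STAT5 target named after its values were seen, had 1.23 and 0.618 CPM in KO 1 and KO 2, and 0.841 and 1.18 CPM in control 1 and control 2, so the genotypes overlapped. Bcl2, also named after its values were seen, had 12.8 and 7.59 CPM in KO 1 and KO 2, and 20.3 and 26.0 CPM in control 1 and control 2 (adjusted p = 0.227).

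The 13 genes of the PI3K and Ras branch, which these receptors also engage, had 0 calls by edgeR, 3 members at an unadjusted p below 0.05, 2 called by DESeq2 (1 higher and 1 lower) and a median of -0.16. Pik3cd, the catalytic PI3K subunit of leukocytes, had 145 and 158 CPM in KO 1 and KO 2, and 65.6 and 78.9 CPM in control 1 and control 2 (edgeR quasi-likelihood test, adjusted p = 0.0896). Its regulatory partner Pik3r1 had a log2 fold change of -0.61 ± 0.22 (SE). Irs2, an adaptor of the interleukin-4 receptor, had -1.26 ± 0.33 (SE).

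Factors reported to regulate Il7r were tested for 16 of 17 genes, with 0 called by edgeR, 4 at an unadjusted p below 0.05, 3 called by DESeq2 (1 higher and 2 lower) and a median of -0.11. Foxo1, an activator of Il7r in T cells, had 54.4 and 46.3 CPM in KO 1 and KO 2, and 101.6 and 89.1 CPM in control 1 and control 2 (edgeR quasi-likelihood test, adjusted p = 0.133). Zfp36l2, which encodes an RNA-decay protein, had 189 and 148 CPM in KO 1 and KO 2, and 96.6 and 82.1 CPM in control 1 and control 2 (adjusted p = 0.14). Ets1 and Tcf7, first in the list by mean CPM, had log2 fold changes of -0.40 ± 0.24 and -0.32 ± 0.23 (SE). Receptors of other cytokine families had 0 of 23 tested members called by edgeR and 2 lower by DESeq2. Of them, 3 were at an unadjusted p below 0.05, all lower, against 13.9% of all tested genes. The list median was -0.34, also with Il18r1 at its bound. Ifngr1, an interferon gamma receptor chain gene, had 170.4 and 283 CPM in KO 1 and KO 2, and 474 and 539 CPM in control 1 and control 2 (adjusted p = 0.117). Il17ra, an interleukin-17 receptor chain gene, had a log2 fold change of -0.08 ± 0.23 (SE). Il12rb1 had 10.5 and 24.0 CPM in KO 1 and KO 2, and 44.5 and 29.6 CPM in control 1 and control 2. Il18r1 had 0 reads in both KO libraries, and 1.09 and 1.56 CPM in control 1 and control 2.

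**Figure D4:**
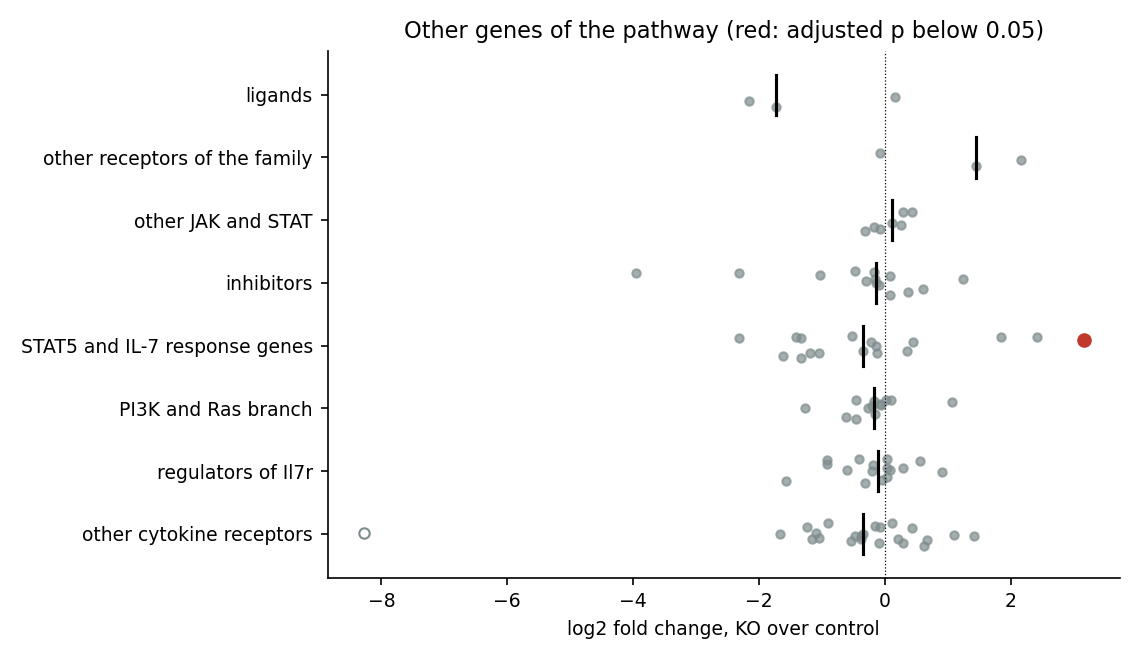
Log2 fold change, KO over control, of each tested gene in 8 lists, 1 point per gene with its height within a row arbitrary, and black bars at list medians. Red marks Myc (3.16), the called gene, and the open symbol at the left marks Il18r1, which had 0 reads in both KO libraries, so that its position depends on the prior count.

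Markers of thymocyte stages were read beside Il7r and Il2ra. Of 11 tested DN markers, 2 rose (Notch3 and Dtx1), 0 fell and 9 were not called, and their summed level was 3011 and 1492 CPM in KO 1 and KO 2, and 835 and 531 CPM in control 1 and control 2. Most of that sum was Notch1, at 2313 and 1084 CPM in KO 1 and KO 2, and 653 and 387 CPM in control 1 and control 2. DESeq2 called 5 of the list higher and 1 lower. Of all tested genes, edgeR called 0.451% and DESeq2 4.64%. Ptcra had 49.9 and 26.5 CPM in KO 1 and KO 2, and 13.5 and 4.27 CPM in control 1 and control 2. Hes1 had 16.8 and 3.03 CPM in KO 1 and KO 2, and 0 and 0.115 CPM in control 1 and control 2. Neither was called by edgeR, and both were called higher by DESeq2 (adjusted p = 0.00343 and 8.13e-07). Without a call by edgeR, Cd44 lay on the other side, with 11.7 and 15.003 CPM in KO 1 and KO 2, and 30.3 and 35.2 CPM in control 1 and control 2 (DESeq2, adjusted p = 0.0139), as did Nrarp, with 3.24 and 1.71 CPM in KO 1 and KO 2, and 4.29 and 6.66 CPM in control 1 and control 2. The early progenitor markers Lyl1, Hhex, Bcl11a and Lmo2 stayed below 1 CPM in every library. Spib had 5.25 and 2.98 CPM in KO 1 and KO 2, and 1.60 and 1.67 CPM in control 1 and control 2, Erg reached 4.46 CPM in control 1, and Kit, at up to 7.86 CPM, overlapped between genotypes. Of 12 tested DP markers, 3 fell (Cd4, Cd8a and Dntt), 0 rose and 9 were not called, and their sum was 6251 and 9298 CPM in KO 1 and KO 2, and 13556 and 17522 CPM in control 1 and control 2. Cd4 and Cd8a, which defined the sort, were present in all 4 libraries, at no less than 142 and 258 CPM. The part of cell composition in the rise of Il7r and Il2ra was not tested, and in bulk samples fewer cells of a type and less RNA per cell cannot be told apart.

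Markers of other cell types summed to less than the DN and DP lists in each library, apart from cell cycle genes. Mature single-positive markers summed to 81.9 and 78.8 CPM in KO 1 and KO 2, and 117 and 130.4 CPM in control 1 and control 2, with 1 of 8 tested lower (Cd52) and 0 higher. The egress receptor gene S1pr1, which defines mature cells, had at most 1.26 CPM in KO and 0.260 CPM in control libraries. Regulatory T cell markers had 0 of 5 called, with sums of 189 and 247 CPM in KO 1 and KO 2, and 112 and 169 CPM in control 1 and control 2, mostly Ikzf2, which many thymocytes express. Their defining gene Foxp3 had 3.10 and 3.68 CPM in KO 1 and KO 2, and 3.03 and 2.08 CPM in control 1 and control 2. NK and innate lymphoid markers summed to 10.96 and 10.7 CPM in KO 1 and KO 2, and 19.7 and 15.6 CPM in control 1 and control 2, with Klrd1 and Areg at 0 in all 4 libraries, and B cell markers to 10.8 and 7.92 CPM in KO 1 and KO 2, and 9.67 and 8.02 CPM in control 1 and control 2. Gamma-delta T markers were represented by 3 of 7 symbols, with sums of 10.8 and 3.43 CPM in KO 1 and KO 2, and 5.63 and 0.490 CPM in control 1 and control 2. Myeloid and dendritic markers summed to 32.2 and 49.4 CPM in KO 1 and KO 2, and 25.6 and 40.3 CPM in control 1 and control 2, and thymic epithelial markers to 30.1 and 32.8 CPM in KO 1 and KO 2, and 16.3 and 20.1 CPM in control 1 and control 2. The epithelial sum was mostly Epcam and Ccl25. By edgeR 0 of 6 tested genes were called, 4 had a log2 fold change below 0 and the list median was -2.43. DESeq2 called 1 of them higher, Epcam (adjusted p = 0.0444). Epcam had 11.6 and 15.1 CPM in KO 1 and KO 2, and 1.09 and 4.88 CPM in control 1 and control 2. The defining epithelial gene Foxn1 had 0.172 and 0.0562 CPM in KO 1 and KO 2, and 1.60 and 1.15 CPM in control 1 and control 2, and Psmb11 had 0.0574 and 0 CPM in KO 1 and KO 2, and 1.18 and 1.38 CPM in control 1 and control 2. Erythroid markers had 1 of 6 higher, the globin gene Hba-a1, at 14.6 and 6.49 CPM in KO 1 and KO 2, and 0 CPM in both controls, and their sums were 38.0 and 26.2 CPM in KO 1 and KO 2, and 8.66 and 14.0 CPM in control 1 and control 2. The 8 cell cycle genes had 0 calls, and summed to 4069 and 2927 CPM in KO 1 and KO 2, and 4876 and 3761 CPM in control 1 and control 2. The part of these cell types in the results was not tested.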

How the data were processed

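Per the labels' protocols, sorted cells were lysed in TRIzol and 10 ng of RNA per sample entered a SMART-seq kit, which amplifies cDNA. No molecular identifiers are mentioned. The authors deposited unnormalised counts per gene symbol, 1 file per library. Alignment was with HISAT2, per the file headers. Versions in the submitters' processing notes are HISAT2 2.2.1 and featureCounts 2.0.8, with cutadapt 4.0 and edgeR 3.36.0 also listed, and the build is mm10. Neither names the annotation, strand setting or treatment of multiply matching reads. Depth ran from 12150508 to 36243182 counts per library.

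Tests on the counts used edgeR 4.0.16 under R 4.3.3 (filterByExpr defaults of 10 and 15 counts, TMM, quasi-likelihood test on genotype alone, two-sided, Benjamini-Hochberg adjustment over 20389 genes, called below 0.05). SE is the log2 fold change divided by the square root of F, and 95% intervals use the moderated degrees of freedom (median 9.19). Self-tests used simulated counts. DESeq2 1.42.0 was an alternative. Exon lengths are unions of GENCODE exons and gene positions are RefSeq's, both on GRCm38, the assembly mm10 names. No pair of libraries was a duplicate (lowest chi-square over its degrees of freedom 56.9). Log2 CPM for likeness used a prior count of 2.

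The members, lists and markers were chosen with earlier results of these data known, so none is independent support. Named were all members, Cxxc1, each list's called genes (or the 2 highest in level) with up to 2 more of smallest p, and the 3 genes most like Il7r and Il2ra, without predicted-gene and clone symbols. Some genes that this rule names are not reported here. Double-negative libraries were not analysed here.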

Additional observations from a re-analysis of the deposited data

How the results depend on the processing

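The 12 alternatives gave 119 member fold changes, of which 99 kept their direction and side of the threshold, 15 came to pass it, 1 (Il7r without KO replicate 1) no longer passed it and 4 changed sign. Against 92 genes and 2 members called, there were 920 and 5 with no filter on low counts, 228 and 4 at a minimum of 5 CPM in 2 libraries (where Il2rb was not tested), and 947 and 5 with DESeq2. The replicate block gave 1599 and 5, but the labels tie the numbers to no shared litter or batch and the deviations of same-numbered libraries had a correlation of -0.01, so the numbers were not taken to pair samples. Leaving out 1 library gave 9 to 619 genes and 1 to 3 members called, with the fewest without KO replicate 1 (9 and 1), against 103 and 3 without KO replicate 2, 555 and 3 without control replicate 1 and 619 and 3 without control replicate 2. The sign changes came from these fits, in which the log2 fold change ran from -0.15 to 0.08 for Stat5a (0.01 without KO replicate 1, 0.076 without control replicate 2) and from -0.23 to 0.06 for Il2rb (0.03 without KO replicate 2, 0.060 without control replicate 2). The cause was not tested. Of 96 list counts, 63 stayed within 1.5 times and 33 did not. A count of 0 in both fits was taken as staying, so most of the 63 compare empty lists. The STAT5 and interleukin-7 list, the only list with a call in the fit reported above, had 0 to 7 called. Il2rb, Cish and the ligands rest on few reads, and whether depth or low expression sets this was not tested.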
